A study of Mus musculus with 6 samples.

Results

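The enzymes of the pentose phosphate pathway were followed in B cells switching to IgA in culture, with and without HIF-1α. The set was listed by name, with earlier results of these data known. It holds *G6pdx*, *Pgls* and *Pgd* of the oxidative branch, *Rpia*, *Rpe*, *Tkt* and *Taldo1* of the non-oxidative branch, and the phosphoribosyl pyrophosphate (PRPP) synthetases *Prps1* and *Prps2*. These are 9 of the 46983 genes listed, and all 9 were among the 13312 genes tested, those whose mean FPKM reached 0.5. FPKM scales the fragments counted on a gene by its length and by the depth of the library. Levels set side by side between genes therefore depend on the gene lengths used, which are not stated.

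The data came from bulk RNA-seq of 6 libraries of mouse splenic B cells, 3 from WT and 3 from *Hif1a* KO mice on the C57BL/6 background. In the KO mice both *Hif1a* alleles are floxed and cre is expressed from *Mb1* (*Cd79a*), which is active throughout the B-cell lineage, so the deletion is not limited to switching cells. WT mice were littermates that carried either 1 floxed allele together with cre or 2 floxed alleles without it, and the labels do not tell which library came from which. According to the methods, the starting cells were sorted CD21int CD23+ follicular B cells. Cells of both genotypes were harvested on day 3 of a culture that contained LPS (5 μg/ml) together with BAFF, IL-5 and TGF-β (10 ng/ml of each). The age of the mice is not given in the labels. The labels number the libraries of a genotype 1 to 3 without saying whether they came from separate mice or cultures, so every p-value measures the spread between these libraries.

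The pentose phosphate pathway branches off glycolysis at glucose 6-phosphate. Its oxidative branch yields NADPH and ribulose 5-phosphate, and its non-oxidative branch interconverts sugar phosphates and connects ribose 5-phosphate back to glycolysis. PRPP synthetases activate ribose 5-phosphate for the synthesis of purine, pyrimidine and NAD nucleotides, and NADPH is used in lipid synthesis and in keeping glutathione and thioredoxin reduced, needs that rise when a B cell is activated and divides. HIF-1α is a transcription factor of the response to low oxygen, is also stabilised in activated immune cells, and is known for inducing genes of glycolysis.

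The 6 libraries held between 25.03 and 37.2 M reads, as read back from the FPKM values. B-cell markers were high in all 6, *Pax5* between 428 and 607 FPKM and *Cd79a* between 498 and 1203 FPKM. The libraries of a genotype did not all lie together: WT replicates 2 and 3 were apart from the other 4 on the first principal component, which held 54.7% of the variance. The same 2 libraries held the highest value of 12 of 14 macrophage and monocyte markers (*Lyz2* 58.3 and 26.2 FPKM against 0.60 to 6.18 in the other 4) and of 15 of 18 proliferation genes, while 9 neutrophil markers summed to 39.1 FPKM in WT replicate 1 and to at most 0.528 in any other library. Other values were lower in WT replicates 2 and 3 than in the other 4 libraries. The 7 plasma cell markers summed to 469.8 and 435.2 FPKM against 541.8 to 961.8. Of these markers, *Xbp1* (213.3 and 193.4 FPKM against 233.3 to 474.1), *Jchain* and *Prdm1* were lower. *Irf4*, *Slamf7*, *Sdc1* and *Tnfrsf17* overlapped the other libraries. The B-cell genes *Cd79b* (432.3 and 409.9 FPKM against 589.5 to 734.1) and *Ebf1* (51.8 and 52.4 against 63.0 to 71.0) were low as well. The erythroid markers summed to 16.5 and 13.6 FPKM against 2.96 to 4.84. Y-linked transcripts were above a trace in KO replicate 2 alone (*Ddx3y* 43.3 FPKM), and 3 of the 9 enzymes are X-linked. The FPKM of *Hif1a* counts reads on all of its exons and was 44.0 ± 6.81 in WT and 48.3 ± 3.93 in KO libraries (SD, n = 3 each), which does not check the deletion.

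Because the deleted gene encodes a transcription factor, the promoters of the enzymes were searched for its core motif. RefSeq promoter windows of 300 bases on GRCm38.p6, from 250 bases before the start of the transcript to 50 bases after it, were found for all 9 genes (10 windows, 2 of them for *Pgd*). The core of the hypoxia response element was searched on both strands as ACGTG and GCGTG. The latter stood in a window of 8 of the 9 genes, against 35.2% of the 27025 genes with a window, and ACGTG in 1 of the 9, against 21.8%. At least 1 of the forms was found for 8 of the 9 enzymes, against 46.7% of all genes, and for 18 of 23 glycolytic enzymes with a window. Taken singly, ACGTG was found for 12 of these 23 and GCGTG for 12. The windows of the 9 held 51.3% to 67.3% G and C, and they were not compared with windows of like composition. TGACNNNGC, the core of the antioxidant response element that NRF2 binds, was found for 2 of 9 (*G6pdx* and *Pgd*) against 14.0%, and the E-box CACGTG, which contains ACGTG, for 0 of 9 against 8.09%. A match is only a run of letters in this window, not a site.

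The windows of 3 enzymes are shown because they span what was found: *G6pdx*, which encodes the first enzyme of the pathway and alone held both forms, *Tkt*, the enzyme with the highest level, and *Rpe*, the 1 enzyme with neither. Capitals mark the core motif on either strand.
G6pdx, chrX:74428831-74429130, minus strand: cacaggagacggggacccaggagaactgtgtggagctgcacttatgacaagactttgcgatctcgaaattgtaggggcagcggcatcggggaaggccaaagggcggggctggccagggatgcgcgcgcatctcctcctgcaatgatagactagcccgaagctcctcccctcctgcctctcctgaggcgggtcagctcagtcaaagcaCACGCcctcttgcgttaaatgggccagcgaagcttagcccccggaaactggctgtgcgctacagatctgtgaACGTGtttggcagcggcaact
Tkt, chr14:30548881-30549180, plus strand: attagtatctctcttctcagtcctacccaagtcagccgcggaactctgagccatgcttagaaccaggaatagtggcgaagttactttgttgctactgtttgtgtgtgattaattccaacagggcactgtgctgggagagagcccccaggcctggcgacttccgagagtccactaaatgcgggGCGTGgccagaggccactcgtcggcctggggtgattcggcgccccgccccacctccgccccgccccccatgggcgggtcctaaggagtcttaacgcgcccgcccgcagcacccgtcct
Rpe, chr1:66700581-66700880, plus strand: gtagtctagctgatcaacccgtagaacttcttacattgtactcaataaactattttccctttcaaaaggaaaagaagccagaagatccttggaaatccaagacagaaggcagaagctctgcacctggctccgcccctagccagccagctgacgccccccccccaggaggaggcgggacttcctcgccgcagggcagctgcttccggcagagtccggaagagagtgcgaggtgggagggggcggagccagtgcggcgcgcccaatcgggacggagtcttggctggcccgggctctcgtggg
Counted along the gene from a start set to 0, the cores began at −43 (GCGTG) and at 29 (ACGTG) in *G6pdx* and at −68 in *Tkt*. The single core of *Pgd* began at −40, that of *Prps1* at −138, that of *Pgls* at −205, and those of *Rpia* and *Prps2* both at −74. *Taldo1* held 2 cores, with 1 on each side of its start.

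The question put to the RNA-seq was whether loss of HIF-1α changed the expression of these enzymes in B cells switching to IgA. None of the 9 passed the test. Between the KO and WT means the differences ran from −7.89% (*Prps1*) to 4.13% (*Prps2*) on the FPKM + 1 scale, and the WT and KO values overlapped for every enzyme. Limma with Benjamini-Hochberg adjustment called 0 of the 9 enzymes and 0 of all 13312 genes (0%) at an adjusted p under 0.05. At an unadjusted p under 0.05, limma had 0 of the 9 against 929 of 13312 genes (6.98%), and groups that did not overlap were found for 0 of the 9 against 10.1% of genes. Voom on the reads recovered from the FPKM values also called 0 of 13312 genes, with 830 at an unadjusted p under 0.05. The values of each enzyme follow by branch, and the plot of FPKM by library shows them all.

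**Figure D1:**
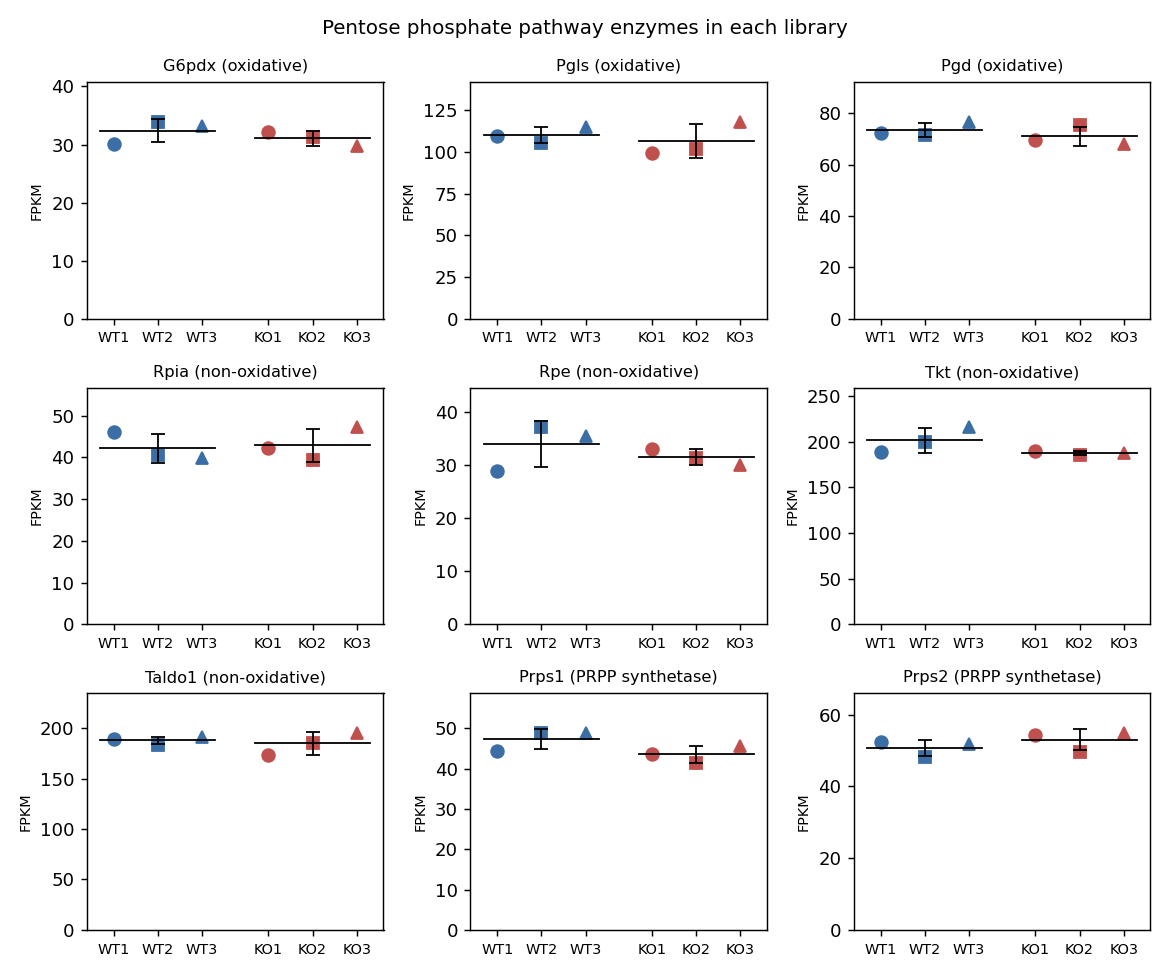
FPKM (y axes, starting at 0) of the 9 pentose phosphate pathway enzymes in 3 WT (blue) and 3 *Hif1a* KO (red) libraries; marker shape gives the replicate number, horizontal lines the group means and bars the SD (n = 3). In every panel the WT and KO values overlap, and the highest library is at most 1.28 times the lowest.

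The oxidative branch differed by less than the spread between libraries. *G6pdx* (ENSMUSG00000031400, chrX:74409483-74429194 on mm10, minus strand) encodes the enzyme of the rate-limiting entry step. In replicates 1, 2 and 3 it had 30.1, 33.9 and 33.2 FPKM in WT and 32.2, 31.4 and 29.7 FPKM in KO libraries, the order kept for every gene that follows. WT replicate 1 was close to the lowest KO library, and the 3 KO values lay within or just under the WT range. The log2 difference of KO minus WT was −0.057 (SE 0.072, limma adjusted p = 0.780), with a 95% interval from −14.6% to 8.15%. *Pgls* (ENSMUSG00000031807, chr8:71592176-71601092, plus strand), whose product hydrolyses the lactone made in the entry step, had 109.75, 105.6 and 114.8 FPKM in WT and 99.5, 101.5 and 118.1 FPKM in KO libraries. KO replicate 3 was the highest of all 6 and the other KO libraries were the lowest, so that the KO group spanned the WT group (log2 difference −0.052, SE 0.082, limma adjusted p = 0.825). *Pgd* (ENSMUSG00000028961, chr4:149149991-149166771, minus strand) encodes 6-phosphogluconate dehydrogenase, which makes the second NADPH of the branch and ribulose 5-phosphate. It had 72.1, 71.6 and 76.7 FPKM in WT and 69.5, 75.3 and 68.0 FPKM in KO libraries. KO replicate 2 lay above WT replicates 1 and 2, and the log2 difference was −0.050 (SE 0.065, limma adjusted p = 0.789). *Pgd* had the narrowest range of the 9, its highest library at 1.13 times the lowest.

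Reads of *G6pdx* can be mixed with those of other genes, since the strand setting of the counting is not stated. Of its exon bases, 13.6% overlap exons of *Ikbkg* on the opposite strand, and 7.65% of the 50-base windows of its longest transcript also occur in *G6pd2*, an intronless copy, which was listed at 0 in all 6 libraries. Exons of *Pgls* overlap those of *Fam129c* on the same strand over 20.6% of their bases.

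In the non-oxidative branch, *Tkt* and *Rpe* showed the larger differences, and neither passed the test. *Rpia* (ENSMUSG00000053604, chr6:70765720-70792232, minus strand) encodes the isomerase that turns ribulose 5-phosphate into ribose 5-phosphate. It had 46.1, 40.6 and 39.9 FPKM in WT and 42.2, 39.3 and 47.2 FPKM in KO libraries. KO libraries were both the highest and the lowest, and the log2 difference of 0.022 (SE 0.092, limma adjusted p = 0.940) was the closest to 0 of the 9. *Rpe* (ENSMUSG00000026005, chr1:66700831-66719805, plus strand) encodes the epimerase that makes xylulose 5-phosphate from the same ribulose 5-phosphate. It had 29.0, 37.1 and 35.6 FPKM in WT and 33.0, 31.4 and 30.0 FPKM in KO libraries. WT replicate 1 was the lowest of all 6 and WT replicates 2 and 3 the highest, with the 3 KO libraries between them. The log2 difference was −0.097 (SE 0.102, limma adjusted p = 0.743), and the range over the libraries was the widest of the 9. Exons of *Kansl1l* on the opposite strand cover 17.9% of the exon bases of *Rpe*.

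*Tkt* (ENSMUSG00000021957, chr14:30548359-30574720, plus strand) encodes transketolase, a thiamine-dependent enzyme that moves 2-carbon units between sugar phosphates. It had 188.6, 200.03 and 215.8 FPKM in WT and 190.2, 185.2 and 187.4 FPKM in KO libraries. The KO libraries lay close together, WT replicate 1 fell among them, and WT replicates 2 and 3 were above all others. The log2 difference was −0.10 (SE 0.067, limma adjusted p = 0.652), with a 95% interval from −16.4% to 4.08%. *Taldo1* (ENSMUSG00000025503, chr7:141392199-141402968, plus strand) encodes transaldolase, which moves 3-carbon units. It had 188.7, 183.6 and 190.7 FPKM in WT and 173.2, 185.6 and 195.3 FPKM in KO libraries. The KO group held both extremes (log2 difference −0.024, SE 0.064, limma adjusted p = 0.898). In its longest transcript, 10.9% of the 50-base windows are also found in *Gm17823*.

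The PRPP synthetases differed in opposite directions, and neither passed the test. *Prps1* (ENSMUSG00000031432, chrX:140456613-140476140, plus strand) had 44.5, 48.7 and 48.9 FPKM in WT and 43.6, 41.3 and 45.7 FPKM in KO libraries. WT replicate 1 lay below KO replicate 3, which is the only overlap between the groups. The log2 difference was −0.12 (SE 0.069, limma adjusted p = 0.632), the farthest from 0 of the 9, with a 95% interval from −17.8% to 3.26%. *Prps2* (ENSMUSG00000025742, chrX:167346322-167382749, minus strand) had 52.5, 48.3 and 51.7 FPKM in WT and 54.4, 49.7 and 55.0 FPKM in KO libraries. KO replicates 1 and 3 were above all WT libraries and KO replicate 2 was below WT replicates 1 and 3 (log2 difference 0.058, SE 0.068, limma adjusted p = 0.765). *Prps1* and *Prps2* are both X-linked, as is *G6pdx*, and KO replicate 2, the library with Y-linked transcripts, was the lowest of the KO libraries for *Prps1* and *Prps2* but not for *G6pdx*; the part of sex in these values was not tested. In *Prps1*, 10.1% of the 50-base windows of the longest transcript also occur in *Prps1l3*.

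The share of *Prps1* in the summed FPKM of both synthetases was a quantity looked at after the single values were seen. It was 45.8%, 50.2% and 48.6% in WT and 44.5%, 45.4% and 45.4% in KO libraries. The groups did not overlap, with WT replicate 1 just above the KO libraries, and no test of 3 against 3 libraries by exact permutation can give a two-sided p below 0.1.

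The plot of the differences sets the 9 enzymes on 1 scale. The 95% intervals of all 9 included 0, and together they ran from −21.0% to 18.2%. Of the 9, 7 were lower and 2 higher in KO libraries by the log2 difference, where 57.9% of all genes tested were lower. The median log2 difference was −0.052 for the 9 and −0.028 for all 13312 genes, so that the enzymes lay close to the middle of the transcriptome. In bulk RNA, fewer cells of a kind and less RNA per cell cannot be told apart.

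**Figure D2:**
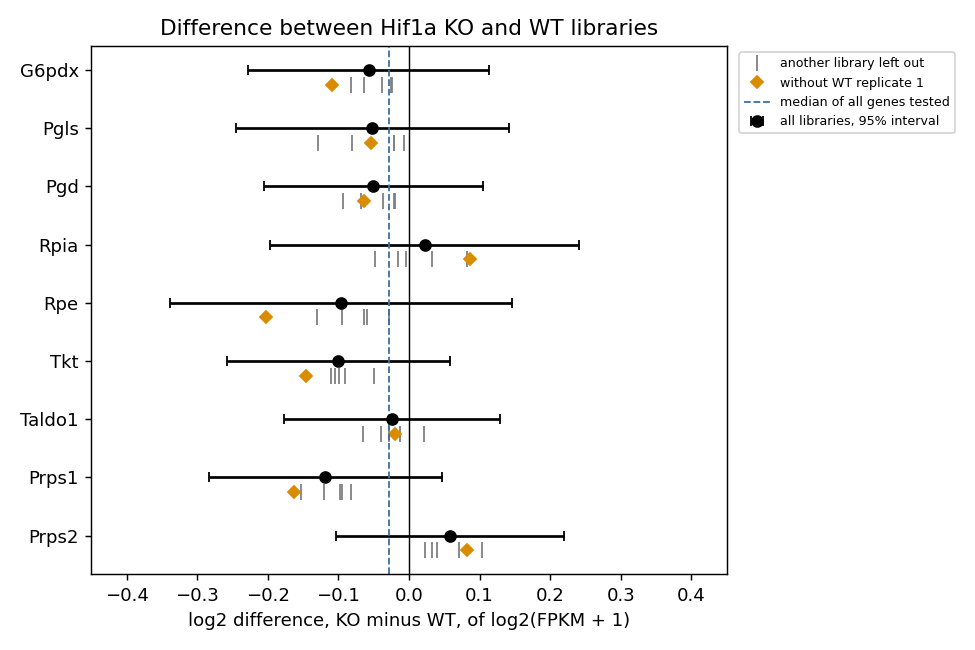
Log2 difference in log2(FPKM + 1), KO minus WT (x axis), for each enzyme: black points with 95% intervals are from all 6 libraries, orange diamonds from the fit without WT replicate 1, grey ticks from fits without each other library, and the dashed line is the median of all genes tested. Every interval includes 0, and the diamonds of *G6pdx*, *Rpe*, *Tkt* and *Prps1* lie farther to the left than their points.

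The levels of the enzymes were kept in nearly the same order in each library. *Tkt* (mean 194.5 FPKM over the 6 libraries) and *Taldo1* (186.2) were highest and exchanged places between libraries, with *Tkt* ahead in 3 of 6. *Pgls* (108.2), *Pgd* (72.2) and *Prps2* (51.9) followed, each below its neighbour in 6 of 6 libraries with no overlap of the ranges. *Prps2* was above *Prps1* (45.5) in 5 of 6 libraries and *Prps1* above *Rpia* (42.5) in 4 of 6, with overlapping ranges in both pairs. *Rpe* (32.7) lay below *Rpia* in 6 of 6 without overlap, while *Rpe* and *G6pdx* (31.7), the lowest, overlapped. The enzyme of the entry step thus had the lowest mean FPKM of the pathway, and *Tkt* was between 5.90 and 6.49 times as high in the same library. The order between genes, and the shares that follow, depend on the gene lengths behind the FPKM values. Those read back were 945 bases for *Taldo1* and 1336 for *Pgls*, while their longest transcripts have 1362 and 1062 bases.

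Summed FPKM kept the proportions of the branches. The oxidative branch summed to 215.9 ± 7.61 in WT and 208.4 ± 7.33 in KO libraries, and the non-oxidative branch to 465.2 ± 15.1 and 446.7 ± 11.6 (SD, n = 3 each). The ratio of the oxidative to the non-oxidative sum was 0.464 ± 0.00576 in WT and 0.466 ± 0.00688 in KO libraries and lay between 0.458 and 0.472 in all 6. *Tkt* and *Taldo1* alone made up 49.3% to 50.4% of the sum of all 9.

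The 9 enzymes were expressed well, and all but *Rpe* varied less than the median of genes at a similar level. Their mean FPKM placed them between percentile 69.5 and percentile 95.7 of the genes tested. Each value rested on 1013 to 10999 reads, for which counting error alone is at most 3.14% of the value. The range over the libraries, as the highest minus the lowest log2(FPKM + 1), was 0.17 to 0.35 with a median of 0.22, against a median of 0.36 for all genes tested and of 0.28 for the 4455 genes with a mean between 25 and 250 FPKM. All 9 had a range below the median of all genes, between percentile 11.5 (*Pgd*) and percentile 48.1 (*Rpe*). The range of *Rpe* (0.35) was above the median of the genes between 25 and 250 FPKM. The SD within a group was 1.94% to 12.8% of the mean in WT and 1.32% to 9.58% in KO libraries, with *Rpe* at the top in WT and *Pgls* in KO.

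**Figure D3:**
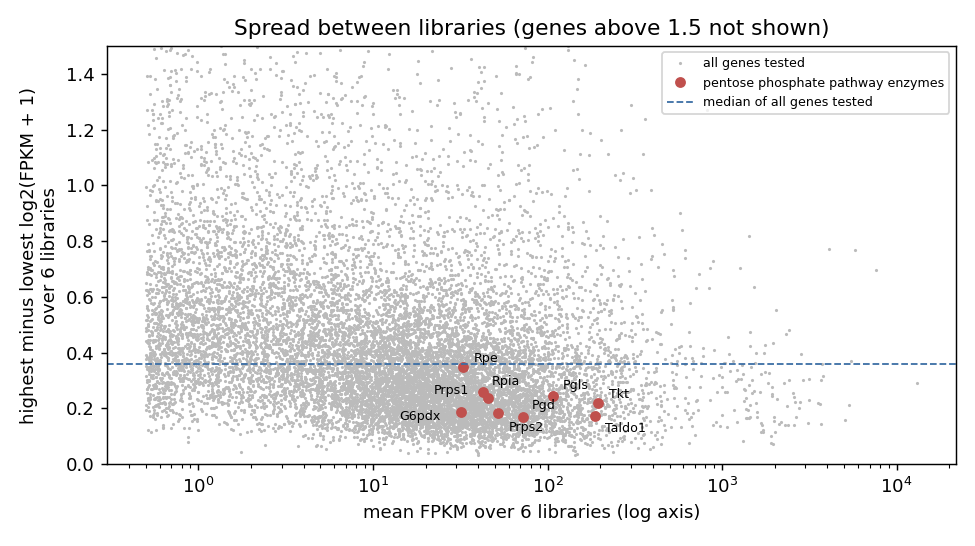
Highest minus lowest log2(FPKM + 1) over the 6 libraries (y axis) against mean FPKM (x axis, log scale) for all genes tested (grey) and the 9 enzymes (red, named); the dashed line is the median of all genes, and 346 genes above 1.5 are not shown. The 9 enzymes lie between 0.17 and 0.35, under the median of 0.36.

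The genes with the profile most like that of a member were sought by the root mean square difference of centred log2(FPKM + 1) over the 6 libraries. For *G6pdx* they were *Rnf138* (0.0112), *Dhx30* (0.0114) and *Scaf8* (0.0121). For *Rpe*, the member with the widest range, they were *Rbak* (0.0139), *Hace1* (0.0170) and *Zbtb11* (0.0174). With 6 libraries and 13312 genes, close matches are easy to find.

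The 2 WT libraries that stood apart were on the high side for some of the enzymes. WT replicate 2 or 3 held the highest value of 5 of the 9: *G6pdx*, *Pgd*, *Rpe*, *Tkt* and *Prps1*. Without WT replicate 1, which lay near the KO libraries on the first component, limma with Benjamini-Hochberg adjustment called 1251 genes (9.4%) and again 0 of the 9 enzymes. The log2 differences were then −0.20 for *Rpe* (adjusted p = 0.105), −0.15 for *Tkt* (adjusted p = 0.156), −0.16 for *Prps1* (adjusted p = 0.152) and −0.11 for *G6pdx* (adjusted p = 0.292) by limma. These 4 had all KO values below the remaining WT values, where 32% of all genes had the same, and 3 of the 9 had an unadjusted p under 0.05 in limma against 29.9% of genes.

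With weights for each library, which gave WT replicate 1 the lowest weight, limma called 1449 genes (10.9%) and 0 of the 9 enzymes. Of the 9, 3 had an unadjusted p under 0.05 (*Rpe*, *Tkt* and *Prps1*) against 32.8% of all genes, and the smallest limma adjusted p of an enzyme over all 18 settings was 0.0836 (*Prps1*). With WT replicate 1 alone set against the 3 KO libraries, an alternative chosen after seeing the data, 6 of the 9 were lower in KO, against 47.5% of all genes. *G6pdx* and *Rpe* were then higher in KO by 0.046 and 0.11 on the log2 scale and *Rpia* lower (−0.11). Most of the macrophage and proliferation markers, the sum of the erythroid markers, *Xbp1*, *Jchain*, *Prdm1*, *Cd79b* and *Ebf1* moved with the same 2 WT libraries, up or down. Their part in these values was not tested.

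Other genes of the pathway were likewise not called. Of 15 further pentose phosphate genes, 11 were expressed enough to be tested and 0 were called. Of these 11, 6 were lower and 5 higher in KO libraries, and their median log2 difference was −0.068. *Tigar*, which encodes a phosphatase that diverts sugar phosphates from glycolysis into the pathway, had 8.41, 10.5 and 10.2 FPKM in WT and 8.53, 7.95 and 8.20 FPKM in KO libraries (log2 difference −0.21, SE 0.099, limma adjusted p = 0.626). It was again WT replicates 2 and 3 that were high. With library weights *Tigar* was the 1 gene of the 11 that was called, at −0.28 (limma adjusted p = 0.0486), where 10.9% of all genes were called. *Shpk*, the sedoheptulose kinase, was low throughout, with 1.73, 2.32 and 2.09 FPKM in WT and 1.27, 1.52 and 1.87 FPKM in KO libraries (−0.26, limma adjusted p = 0.626).

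*Dera*, whose product splits deoxyribose 5-phosphate, was the 1 gene of the 11 with groups that did not overlap, where 10.1% of all genes had the same. It had 73.6, 72.7 and 73.2 FPKM in WT and 78.1, 74.3 and 74.1 FPKM in KO libraries. The difference was small (log2 difference 0.043, SE 0.054, limma adjusted p = 0.779). Regulatory partners of PRPP synthetase were expressed at levels like those of the enzyme, *Prpsap1* at 48.2 to 52.5 FPKM (log2 difference 0.039) and *Prpsap2* at 26.6 to 33.4 FPKM (−0.11). *Prps1l3*, a gene closely related to *Prps1*, was listed at 30.8 to 35.4 FPKM (−0.068). *H6pd*, the form of the entry enzyme in the endoplasmic reticulum, lay between 6.36 and 8.16 FPKM (0.042). The ribokinase *Rbks* (4.09 to 5.84 FPKM, −0.11), the gluconate kinase *Idnk* (13.4 to 16.7 FPKM, 0.058) and the phosphoglucomutase family members *Pgm1* (8.59 to 11.6 FPKM, 0.066) and *Pgm2* (37.8 to 43.7 FPKM, −0.082) were not called either. *G6pd2* and *Prps1l1* were listed at 0 in all libraries, and *Tktl1* and *Tktl2*, relatives of transketolase, at no more than 0.174 and 0.0106 FPKM.

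The pathways that feed and use its products were counted in the same fit. None of these lists held a called gene in the unweighted fit of all 6 libraries, and the numbers are set side by side without a test of 1 list against another. The enzymes of purine, pyrimidine and NAD synthesis, the routes that PRPP enters, had a median log2 difference of −0.16, with 16 of 18 genes lower in KO libraries. *Gart*, a trifunctional enzyme of purine synthesis, had 41.4, 57.3 and 58.7 FPKM in WT and 41.9, 42.4 and 39.2 FPKM in KO libraries (−0.33, limma adjusted p = 0.626). WT replicate 1 was among the KO values, and the same held for *Cad* (−0.36), which starts pyrimidine synthesis, *Ppat* (−0.21), the first enzyme of purine synthesis, *Hprt* (−0.19), the purine salvage enzyme, *Impdh2* (−0.18), which leads to guanine nucleotides, and, just below them, *Paics* (−0.13).

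The list of other NADPH sources, which takes in folate enzymes and the kinases that make NADP, held wide differences between libraries. The median log2 difference of their 11 tested genes was −0.042, but *Mthfd2*, a mitochondrial folate enzyme, had 83.7, 218.2 and 224.7 FPKM in WT and 96.4, 85.7 and 79.6 FPKM in KO libraries (−0.87, SE 0.36, limma adjusted p = 0.626). *Aldh1l2*, which makes NADPH from mitochondrial formyl-folate, had 0.597, 9.59 and 10.7 FPKM in WT and 0.787, 0.696 and 0.660 FPKM in KO libraries (−1.77, SE 0.72, limma adjusted p = 0.626). For both genes WT replicates 2 and 3 stood far above the other 4 libraries, and WT replicate 1 lay among the KO libraries for *Mthfd2* and below them for *Aldh1l2*. *Mthfd1* (−0.31) and *Mthfd1l* (−0.32), of the same folate pathway, had the same order, while *Nadk*, the kinase that makes NADP, was at 122.4 to 133.2 FPKM (−0.018).

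Genes of the glutathione and thioredoxin system, with the reductases that use NADPH and the peroxidases and carriers around them, had a median log2 difference of −0.087 over 12 genes, 9 of them lower. *Prdx1*, a peroxiredoxin, had 299.5, 456.4 and 426.2 FPKM in WT and 314.7, 287.9 and 295.0 FPKM in KO libraries (−0.37, limma adjusted p = 0.626). *Txn1* (−0.33), *Gsr* (−0.34) and *Txnrd1* (−0.27), which encode thioredoxin and the reductases of glutathione and thioredoxin, were also highest in WT replicates 2 and 3. *Gpx1*, a glutathione peroxidase, was at 379.2 to 393.7 FPKM in all 6 libraries (0.025).

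Glycolysis, from which the pathway branches, had a median log2 difference of −0.21, with 17 of 21 genes lower. Of the 21, 11 had all KO values below all WT values, where 6.03% of all genes did, and for the pentose phosphate enzymes this number was 0 of 9. *Pkm* had 308.9, 321.4 and 319.0 FPKM in WT and 257.9, 269.7 and 246.5 FPKM in KO libraries (−0.29, SE 0.060, limma adjusted p = 0.626). *Eno1* (−0.42), *Aldoa* (−0.40), *Pgam1* (−0.23) and *Ldha* (−0.080) also had groups that did not overlap, with WT replicate 1 on the WT side. *Hk2*, a hexokinase (−0.59), and *Pfkp*, a phosphofructokinase (−0.51), had larger differences, but there WT replicate 1 lay among the KO libraries: *Hk2* had 22.1, 40.0 and 39.6 FPKM in WT and 25.2, 22.5 and 17.3 FPKM in KO, and *Pfkp* 93.1, 161.1 and 156.2 FPKM in WT and 99.2, 88.6 and 91.1 FPKM in KO libraries. *Gapdh* was listed at 6.33 to 16.9 FPKM in 5 libraries and at 101.1 FPKM in KO replicate 2, and as a gene with many near-identical pseudogenes its value is uncertain.

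Without WT replicate 1, limma with Benjamini-Hochberg adjustment called 4 of 18 genes of nucleotide and NAD synthesis (*Gart*, *Ppat*, *Hprt* and *Atic*), 4 of 11 other NADPH sources (*Mthfd1*, *Mthfd2*, *Mthfd1l* and *Aldh1l2*) and 4 of 12 genes of the glutathione and thioredoxin system (*Gsr*, *Txnrd1*, *Prdx1* and *Txn1*), all of them lower in KO, where 5.75% of all genes were called lower. Of 21 glycolytic genes 8 were called, 7 of them lower and *Pgam2* higher (0.84). With library weights over all 6 libraries the calls were 4 of 18, 4 of 11, 4 of 12 and 9 of 21 in the same order, against 10.9% of all genes. With WT replicate 1 alone against KO, the median log2 differences were 0.011 for nucleotide and NAD synthesis, 0.025 for other NADPH sources, 0.022 for the glutathione and thioredoxin system, −0.16 for glycolysis and −0.025 for the 9 enzymes. These last medians rest on 1 WT library, chosen after it was seen to lie near the KO libraries, and no list was tested against another.

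**Figure D4:**
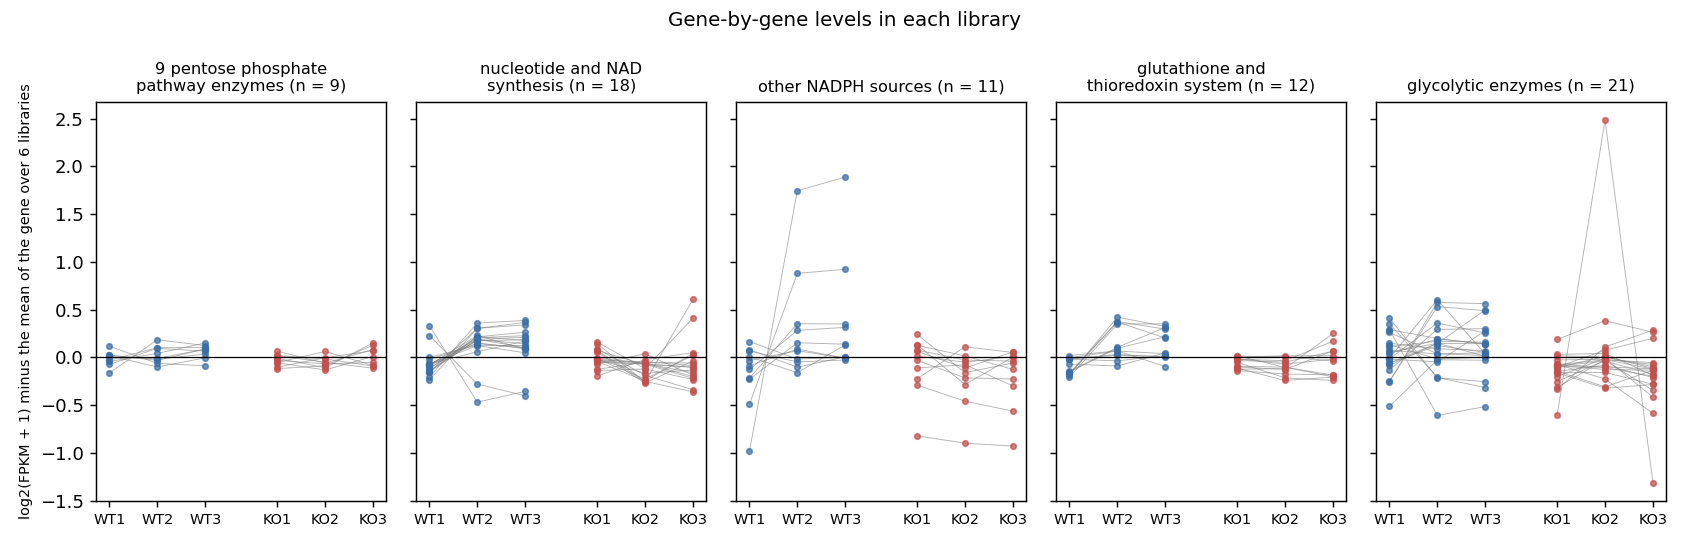
Log2(FPKM + 1) of each gene minus its mean over the 6 libraries (y axis) in WT (blue) and KO (red) libraries, with 1 line per gene within a group, for the 9 enzymes and the tested genes of 4 neighbouring lists. The 9 enzymes form a narrow band around 0 in every library, while *Mthfd2*, *Aldh1l2* and other genes of the middle panels are higher in WT replicates 2 and 3 than in the other 4 libraries, and the single point at the top of the last panel is *Gapdh* in KO replicate 2.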

How the data were processed

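Bulk RNA-seq of 6 mouse splenic B-cell libraries (3 WT, 3 *Hif1a* KO) was used. Groups and replicate numbers came from the sample titles. The authors mapped the paired-end reads against mm10 using TopHat and counted reads per gene using HTSeq, divided by gene length and depth and deposited FPKM values, and they tested their own counts with DESeq. The annotation release, strand setting and treatment of multiply aligned reads are not given in the sources used here. Symbols and coordinates were taken from GENCODE vM21 (46488 of 46983 IDs matched). Library depth and reads per gene were read back from the steps of the FPKM values (25716 of 25717 genes above 0 gave whole reads within 0.01 of a read).

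The test was limma 3.58.1 under R 4.3.3 (lmFit, then eBayes with trend) on log2(FPKM + 1), two-sided, without covariates, over genes whose mean FPKM reached 0.5; fold changes on this scale understate those of low genes. A gene was called when its adjusted p (Benjamini-Hochberg) was under 0.05. "Lower" and "higher" give the sign of the log2 difference, and groups that do not overlap have all values of 1 group above those of the other. The script was tested on simulated data before use. The members and all gene lists were chosen with earlier results of these data known. The genes named are the 9 enzymes, the further pentose phosphate genes, from each other list up to 4 genes with the smallest p and up to 2 with the highest mean FPKM, and 3 genes most like *G6pdx* or the widest-ranging member; *Gapdh*, *Hk2*, *Pfkp*, *Pgam2*, *Atic* and the marker genes named were chosen after their values were seen. Alternatives were a pseudocount of 0.1, a filter at 5 FPKM or none, scaling by median ratios or quantiles, robust eBayes, eBayes without trend, a replicate block, library weights, voom on recovered reads, each library left out in turn, and, chosen after seeing the data, WT replicate 1 alone against KO. Promoters came from RefSeq windows on GRCm38.p6. Exon overlaps and shared 50-base windows were computed from GENCODE. Other steps used Python 3.11.15 (pandas 2.3.3, numpy 2.4.6, matplotlib 3.10.9). The values of 1 marker gene are not reported here.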

Additional observations from a re-analysis of the deposited data

How the results depend on the processing

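Over the 17 alternatives, 0 of the 9 enzymes were called. The number of genes called was 0 with all 6 libraries as fitted, 1449 with library weights and 3 with WT replicate 1 alone against KO, and leaving out 1 library in turn gave 0 to 1251, the 1251 without WT replicate 1. The median log2 difference of the 9 enzymes was −0.064 to −0.022 with 1 library left out, and −0.018 with median-ratio scaling, which moved the median of all genes to 0.0019. After that scaling 1 of the 9 had all KO values below all WT values, as did 725 of 13312 genes. With WT replicate 1 alone against KO the sign turned for *G6pdx* (0.046), *Rpia* (−0.11) and *Rpe* (0.11), and, outside the 9, for *H6pd* (−0.012), *Pgm1* (−0.026), *Prps1l3* (0.027), *Prpsap1* (−0.011), *Prpsap2* (0.089), *Ppat* (0.0089), *Paics* (0.078), *Impdh2* (0.0028), *Hprt* (0.026), *Cad* (0.024), *Mthfd2* (0.054), *Mthfd1l* (0.055), *Aldh1l2* (0.10), *Nadk* (0.025), *Txnrd1* (0.041) and *Txn1* (0.041); the lone WT library is assumed to vary like the KO group. With median-ratio scaling it turned for *Taldo1* (0.010) and *Nadk* (0.017). With 1 library left out, the ranges crossed 0 for *Rpia* (−0.048 to 0.087), *Taldo1* (−0.065 to 0.021), *H6pd* (−0.035 to 0.12), *Rbks* (−0.21 to 0.0044), *Pgm1* (−0.027 to 0.15), *Idnk* (−0.017 to 0.13) and *Nadk* (−0.039 to 0.013). The cause was not tested. Of the genes whose sign turned, *Ppat*, *Hprt*, *Mthfd2*, *Mthfd1l*, *Aldh1l2*, *Txnrd1* and *Txn1* were called lower without WT replicate 1, and with all 6 libraries as fitted none was called. The replicate numbers share only a number between groups: deviations of same-numbered libraries correlated at −0.099, 0.14 and −0.28 across genes, and with the replicate block limma called 0 genes and 0 of the 9 enzymes (694 genes at an unadjusted p under 0.05). Counting error was at most 3.14% of the value in a single library for the 9 enzymes, reached by *G6pdx* in KO replicate 1. The difference of *G6pdx* between the groups, −3.90%, is between means of 3 libraries each and is not comparable with that figure. Counting error was larger for genes with few reads, such as *Shpk*, *Tktl1* and *Tktl2*.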
